A study of Mus musculus with 11 samples.

Results

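The mitochondrial ribosomal protein genes were followed in colon RNA sequencing of 5 germ-free and 6 humanized mice. They were taken by name as every gene whose symbol is Mrpl or Mrps followed by a number and at most 1 letter, with at least 10 reads in at least 5 mice. All 77 genes with such a name passed this minimum, among 43346 rows of the count table and 19863 genes that entered the test. Large-subunit genes made up 50 of the 77 and small-subunit genes 27. Mrps30 and Mrps18a, which have small-subunit names, were counted with the large subunit, where their proteins sit. Mrps36 carries a ribosomal name, although its product is now described as a component of the 2-oxoglutarate dehydrogenase complex.

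The mice were male Swiss Webster animals studied at 8 to 10 weeks of age. Germ-free mice carried no microbiota. Humanized mice were born germ-free and were given 300 μL of a stool suspension from 1 human donor by gavage at 4 to 5 weeks of age, so this group stands for 1 donor's microbiota. Messenger RNA of colonic tissue was sequenced, and reads assigned to genes ranged from 49097005 to 64148538 in germ-free mice and from 39125290 to 54219854 in humanized mice. Each mitochondrial ribosomal protein gene had between 296 and 6683 reads in every mouse. The read depth therefore differed between the groups, and all comparisons were made after scaling.

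Mitochondrial ribosomes translate the few proteins encoded by mitochondrial DNA, all of which are subunits of the respiratory chain and ATP synthase. Their protein components are all encoded in the nucleus, made in the cytosol and imported, then assembled with ribosomal RNA made inside the organelle. Some descend from the ribosome of the bacterial ancestor, and others were added during the evolution of mitochondria. In the colon, surface epithelial cells draw much of their energy from mitochondrial oxidation of microbial butyrate, a fuel that germ-free mice lack.

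Nuclear genes for mitochondrial proteins often carry binding motifs of NRF1, of ETS factors such as GABP (NRF-2) and of YY1 near their start sites. RefSeq windows of 250 bases before to 50 bases after the start site (build GRCm38.p6) were matched by symbol for 68 of the 77 genes. The ETS motif CCGGAAG was found on either strand in 25 of 68 windows (36.8%), against 9.93% of the windows of 27025 genes. The YY1 motif GCCATNTT was found in 20 of 68 (29.4%), against 6.96% of all windows, and the palindromic NRF1 motif in 3 of 68 (4.41%; Mrpl32, Mrpl39 and Mrpl9), against 1.07%. No motif contains another, and 40 of the 68 windows held at least 1 of them, against 16.6% of all windows. The stretches below, all upstream of the start site and outside annotated exons, show these motifs in capitals in 3 genes that were higher in humanized mice. Mrpl24 (chr3:87919344-87919403, plus strand) holds a YY1 motif, Mrpl43 (chr19:45006443-45006502, minus strand) a pair of ETS motifs, and Mrps27 (chr13:99344706-99344765, plus strand) an ETS motif on the reverse strand.
Mrpl24: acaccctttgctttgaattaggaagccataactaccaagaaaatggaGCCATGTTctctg
Mrpl43: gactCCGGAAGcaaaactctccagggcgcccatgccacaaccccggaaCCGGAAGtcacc
Mrps27: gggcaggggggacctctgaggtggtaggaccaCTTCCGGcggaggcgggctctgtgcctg

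The mitochondrial ribosomal protein genes were slightly higher in humanized mice when libraries were scaled by the trimmed mean of M-values (TMM), and this direction was absent when libraries were scaled to epithelial marker genes. With TMM, 23 of 77 genes rose and 0 fell at a Benjamini-Hochberg FDR below 0.01 in edgeR's exact test. Over all tested genes, 9.20% rose and 10.1% fell. The count was 14 without germ-free mouse 3 and 15 without germ-free mouse 1. Shares over all tested genes are not given for these fits, and a smaller group lowers the power for every gene. The log2 fold change of humanized over germ-free (LFC) was above 0 for 73 of 77 genes, against 51.2% of all tested genes, whereas with epithelial scaling it was above 0 for 35 and below 0 for 42, against 19.0% of all tested genes above 0. The median LFC was 0.25, a fold of 1.19, compared with 0.01 over all tested genes. The LFC ranged from -0.08 to 0.50, and its median standard error (SE) was 0.08, so the largest change was 1.41-fold. At an FDR below 0.05, 43 genes were higher and 0 lower, against 14.0% and 14.6% of all tested genes. At an unadjusted p below 0.05 the exact test gave 51 higher and 0 lower genes, against 18.5% and 19.0% of all tested genes. The edgeR quasi-likelihood test called 20 higher and 0 lower (7.05% and 6.53% of all tested genes), and DESeq2 called 31 higher and 0 lower (2185 higher and 2182 lower over the 19831 genes to which it gave an FDR).

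**Figure D1:**
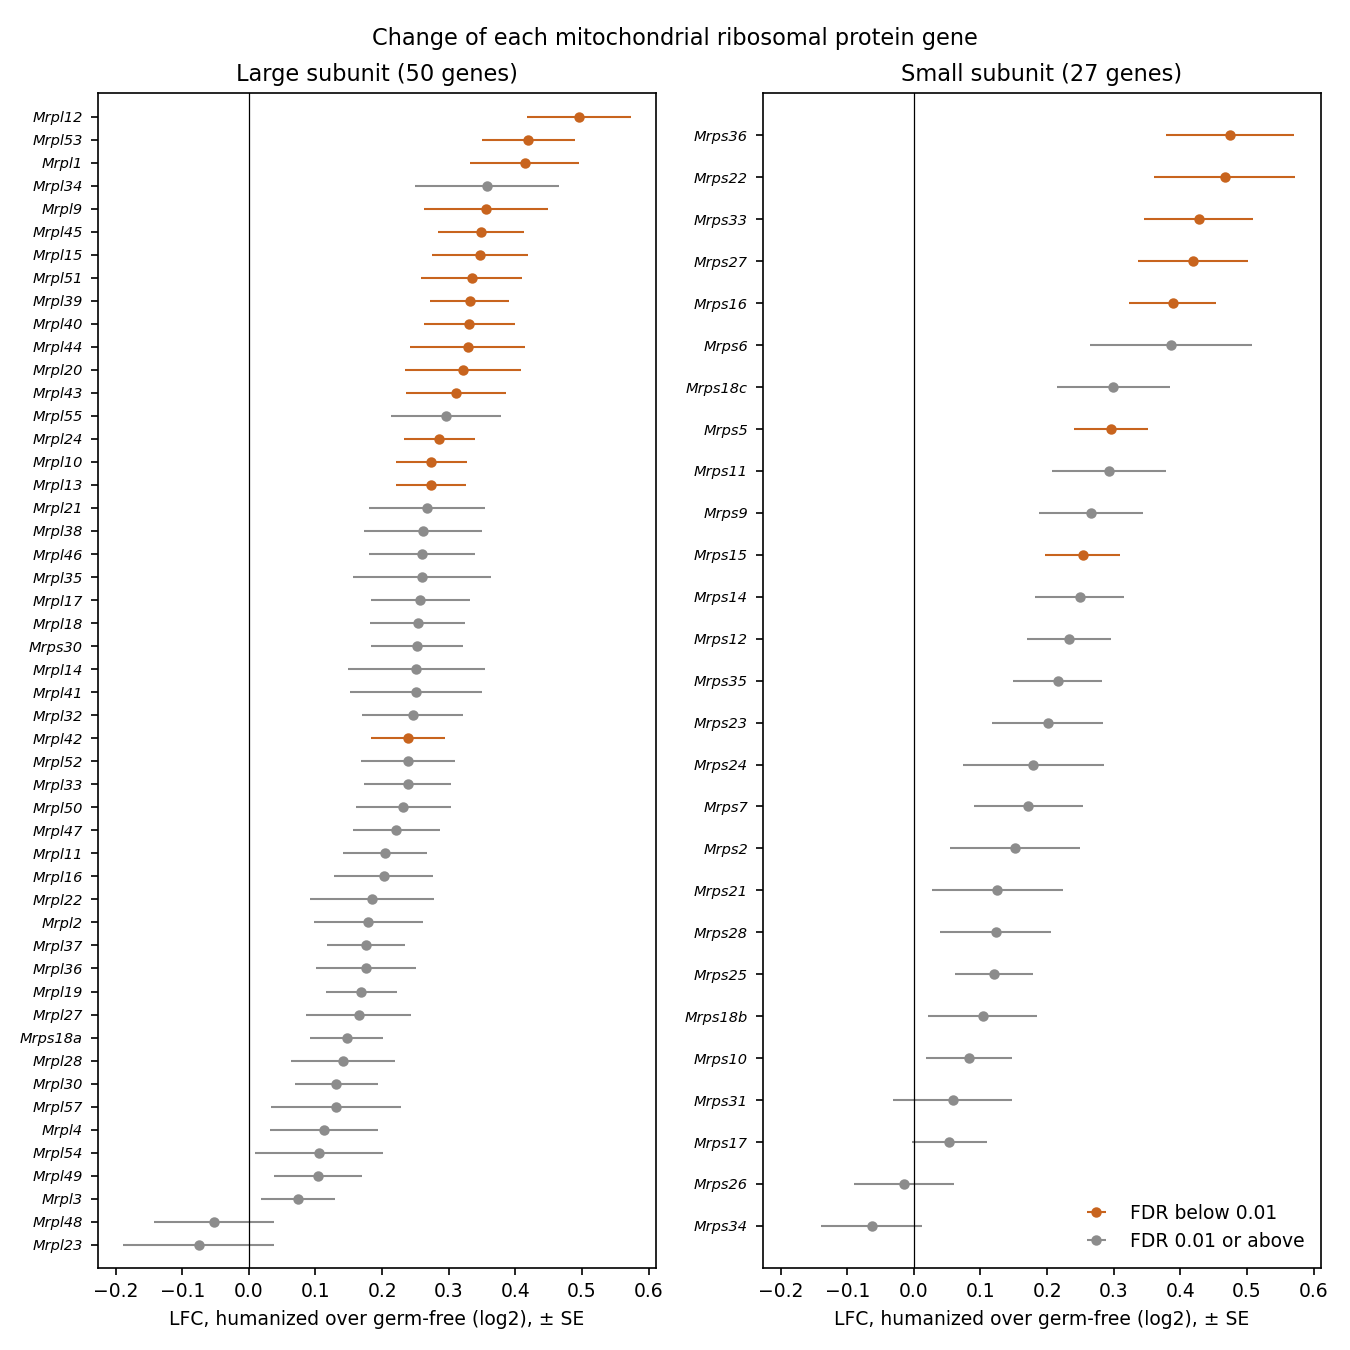
LFC of each of the 77 genes (log2 of humanized over germ-free, TMM scaling, horizontal axis) with its SE as a bar, for the large subunit (50 genes) and the small subunit (27 genes). Orange points are the 23 genes at FDR below 0.01, and only Mrpl48, Mrpl23, Mrps26 and Mrps34 lie left of 0, though with epithelial marker scaling 42 of the 77 have a negative LFC.

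The sign of the median depended on the scaling. The median LFC was above 0 with TMM, total counts, relative log expression (RLE, 0.24) and upper-quartile scaling (0.21). Of the scalings used, it was below 0 only when libraries were scaled to listed epithelial marker or mitochondrial mass genes. When libraries were scaled to 12 epithelial marker genes, the median LFC of the 77 genes was -0.01, 0 genes rose and only Mrps34 fell (LFC -0.32, FDR = 0.0045, exact test). At an unadjusted p below 0.05 this fit had 1 higher and 6 lower genes, against 4.94% and 37.1% of all tested genes, and at FDR below 0.01 it called 2.71% of all tested genes higher and 17.5% lower. With total read counts, 1 gene rose and 0 fell, against 3.89% and 18.2% of all tested genes, and the median LFC was 0.06. The median of all tested genes moved as well, from 0.01 with TMM to -0.24 with epithelial scaling and -0.18 with total counts. Relative to that median, the mitochondrial ribosomal protein genes lay 0.24 higher with TMM, 0.23 higher with epithelial scaling and 0.23 higher with total counts, and 73 of 77 lay above it in each. A change of scaling shifts the LFC of all genes by nearly the same amount. The distance was therefore bound to stay nearly the same, and it does not test the scaling. As a share of all assigned reads, the 77 genes took 0.230% to 0.256% in germ-free and 0.238% to 0.259% in humanized mice, and these ranges overlapped.

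Markers of other cell types moved in the same comparison. Over all tested genes, 9.20% rose and 10.1% fell in the exact test, and 7.05% and 6.53% in the quasi-likelihood test. At an unadjusted p below 0.05 in the exact test, 18.5% were higher and 19.0% lower. DESeq2 called 2185 higher and 2182 lower of 19831 genes. Levels are given here as CPM, the reads of a gene relative to the TMM-scaled library total. All 10 smooth muscle markers fell (median LFC -1.91, summed level 834 to 2381 CPM in germ-free and 95.9 to 856 CPM in humanized mice). Of 7 fibroblast markers, 6 fell (median LFC -1.38, 1373 to 1840 against 132 to 1013 CPM), and all 7 enteric neuron and glia markers fell (median LFC -1.997, 21.4 to 31.1 against 4.42 to 10.3 CPM). With the quasi-likelihood test 5 of the smooth muscle, 4 of the fibroblast and 7 of the neuron and glia markers fell. Of the 12 epithelial markers, 3 rose and 0 fell, with a median LFC of 0.24 and summed levels of 9571 to 12729 CPM in germ-free and 10933 to 15115 CPM in humanized mice. Of 7 immune markers 2 rose (median LFC 1.15), with 4 higher and 1 lower at an unadjusted p below 0.05 and overlapping summed levels (32.0 to 41.0 against 26.2 to 95.5 CPM). Of 5 endothelial markers none passed in the exact test (median LFC -0.91), where 4 were lower at an unadjusted p below 0.05 and DESeq2 called 1 lower. Their summed level was 85.1 to 100 CPM in germ-free and 12.4 to 80.7 CPM in humanized mice, without overlap. With epithelial scaling 3 of them fell in the exact test, against 17.5% of all tested genes. Every list had reads in both groups, and no marker was at 0 in all mice. In bulk tissue, fewer cells of a type and less RNA per cell cannot be told apart. The part of these marker differences in the change of the mitochondrial ribosomal protein genes was not tested beyond the scalings given here.

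The mice varied in how far the genes moved together. Relative to the germ-free mean, the median log2 ratio of the 77 genes with TMM was -0.11, 0.07, -0.02, 0.02 and 0.04 in germ-free mice 1 to 5. It was 0.35, 0.16, 0.17, 0.16, 0.31 and 0.25 in humanized mice 1 to 6. All humanized mice lay above all germ-free mice on this measure. Humanized mouse 1 stood highest, with 76 of 77 genes above the germ-free mean, and germ-free mouse 1 stood lowest, with 3 of 77. With epithelial scaling the same medians ran from -0.10 to 0.07 in germ-free and from -0.15 to 0.15 in humanized mice, so the groups overlapped. The epithelial markers themselves had medians of -0.11 to 0.10 in germ-free and 0.05 to 0.43 in humanized mice with TMM. Humanized mice 1 and 5, highest for the 77 genes with TMM, had the lowest medians of smooth muscle markers (-2.56 and -3.90). They were also lowest for fibroblast markers (-1.72 and -3.47), and a link was not tested.

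**Figure D2:**
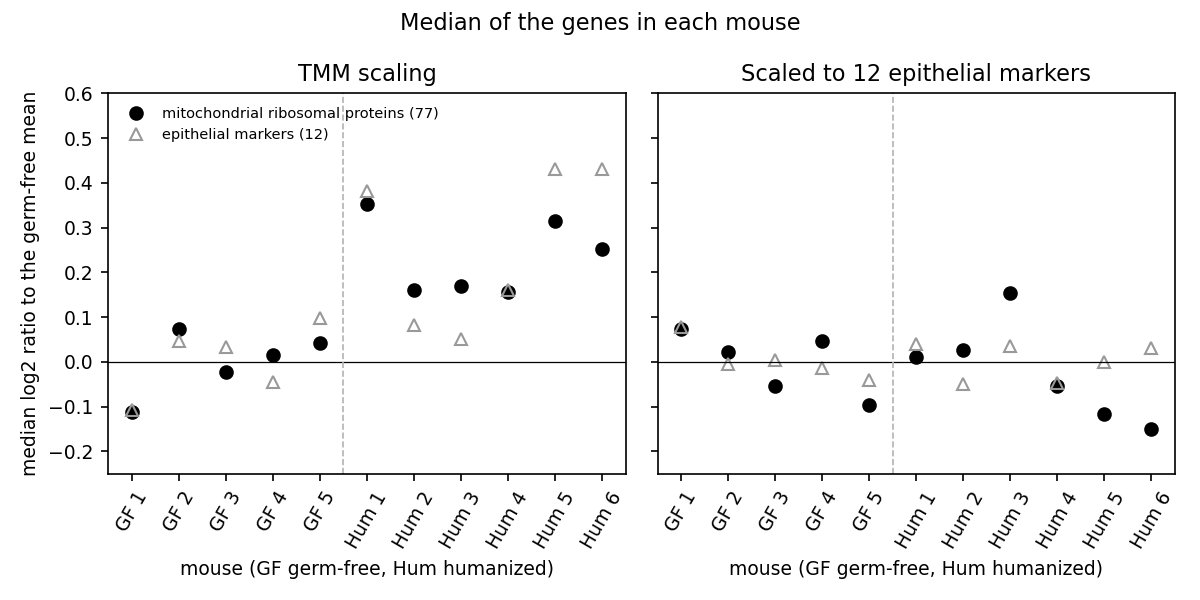
Median log2 ratio to the germ-free mean (vertical axis) in each mouse for the 77 mitochondrial ribosomal protein genes (filled circles) and the 12 epithelial markers (open triangles), with TMM scaling on the left and scaling to the markers on the right. With TMM the humanized mice lie at 0.16 to 0.35, above all germ-free mice, and with marker scaling the groups overlap.

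Between mice of a group, the genes varied less than the tested genes as a whole. The comparison was not matched for level, and each of the 77 genes had at least 296 reads in every mouse. The median coefficient of variation of TMM-normalized CPM was 6.33% in germ-free and 8.79% in humanized mice for these genes, and 10.4% and 16.5% over all tested genes. With TMM-normalized CPM, 29 of the 77 genes had all 6 humanized mice above all 5 germ-free mice and none the reverse, compared with 8.67% and 9.73% of all tested genes. Of the 23 genes that rose, 21 had groups without overlap, and Mrpl9 and Mrpl20 did not. The other 8 genes without overlap (Mrpl55, Mrps11, Mrps30, Mrpl33, Mrps12, Mrpl47, Mrpl11 and Mrpl19) had an FDR of 0.01 or more.

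Both subunits and both evolutionary classes held genes that rose with TMM. In the large subunit 16 of 50 genes rose (median LFC 0.25), and in the small subunit 7 of 27 (median LFC 0.22). Among genes with a bacterial counterpart 11 of 46 rose (median LFC 0.25), and among genes specific to mitochondria 12 of 31 (median LFC 0.24), where 9.20% of all tested genes rose and 10.1% fell. With epithelial scaling no gene of either subunit rose, against 2.71% of all tested genes, and the medians were -0.0048 for the large and -0.043 for the small subunit. The difference between these classes was not tested.

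The stalk of the large subunit recruits translation factors to the ribosome. Mrpl12 (ENSMUSG00000039640, mm10 chr11:120484613-120489065), the counterpart of bacterial L7/L12, forms the mobile arm of this stalk and had the largest LFC of the 77 genes. Its level was 80.0, 94.2, 84.5, 81.1 and 95.6 CPM in germ-free mice 1 to 5, and 109, 123 and 139 CPM as the lowest, median and highest of the humanized mice. The groups did not overlap, and the means were 87.1 ± 7.34 CPM (SD, n = 5) and 123 ± 11.8 CPM (SD, n = 6), an LFC of 0.50 (SE 0.08, FDR = 8.78e-07, edgeR exact test). With epithelial scaling its LFC was 0.24 (FDR = 0.0265, exact test), the highest of the 77 genes in that fit, where none rose. Mrpl10, which anchors the L7/L12 proteins, was at 53.5, 56.0, 52.1, 52.5 and 53.9 CPM in germ-free mice and at 59.0, 65.8 and 68.5 CPM (lowest, median, highest) in humanized mice. These groups did not overlap either, and Mrpl10 rose by an LFC of 0.27 (SE 0.05, FDR = 6.77e-04). With epithelial scaling the LFC of Mrpl10 was 0.01 (FDR = 0.924, exact test). Mrpl11, at the base of the stalk, had an LFC of 0.20 (FDR = 0.0593) and did not pass. It lay at 19.3 to 21.5 CPM in germ-free and 21.6 to 25.9 CPM in humanized mice, without overlap.

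Mrpl1 belongs to the L1 stalk on the opposite side of the large subunit, where spent tRNA leaves. It was at 18.0, 18.9, 17.7, 18.9 and 16.4 CPM in germ-free mice and at 20.5, 24.0 and 27.9 CPM (lowest, median, highest) in humanized mice, with no overlap. Its LFC was 0.41 (SE 0.08, FDR = 5.62e-04). Mrpl53, a mitochondria-specific protein, was at 14.5, 16.03, 16.7, 17.6 and 17.7 CPM in germ-free mice and at 20.2, 22.2 and 23.4 CPM in humanized mice. It rose by an LFC of 0.42 (SE 0.07, FDR = 1.03e-04), again without overlap. Around the exit tunnel, Mrpl45, which tethers the ribosome to the inner membrane, rose by an LFC of 0.35 (SE 0.06, FDR = 5.55e-04) and Mrpl24 by an LFC of 0.29 (SE 0.05, FDR = 3.96e-04). Mrpl23, another protein of the tunnel exit, had the lowest LFC of all 77 genes and did not follow them: it was at 10.3, 10.5, 11.97, 11.03 and 11.2 CPM in germ-free mice and at 7.97, 10.7 and 12.1 CPM in humanized mice (LFC -0.08, SE 0.11, FDR = 0.746).

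Of the other large-subunit genes that rose, Mrpl9, Mrpl13, Mrpl15 and Mrpl20 have bacterial counterparts, and Mrpl39, Mrpl40, Mrpl42, Mrpl43, Mrpl44 and Mrpl51 are specific to mitochondria. Their LFC lay between 0.24 for Mrpl42 and 0.36 for Mrpl9. Mrpl9 was at 44.5, 52.7, 46.8, 45.3 and 42.8 CPM in germ-free mice and at 48.7, 58.8 and 70.1 CPM (lowest, median, highest) in humanized mice. Here the groups overlapped, and the FDR was 0.00396. The gene nearest the threshold on the inside was Mrpl20 (LFC 0.32, FDR = 0.00858), and on the outside Mrpl18 (FDR = 0.0141).

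In the small subunit, the largest LFC was that of Mrps36, the gene whose product is assigned to the 2-oxoglutarate dehydrogenase complex. It was at 15.9, 20.4, 18.1, 18.9 and 20.3 CPM in germ-free mice and at 21.7, 26.0 and 31.4 CPM (lowest, median, highest) in humanized mice. The groups did not overlap, and the LFC was 0.47 (SE 0.10, FDR = 3.17e-04). Mrps22, a mitochondria-specific protein in which mutations cause human respiratory chain disease, was at 10.4, 14.2, 12.5, 13.1 and 15.01 CPM in germ-free mice and at 15.9, 17.9 and 20.9 CPM in humanized mice. It rose by an LFC of 0.47 (SE 0.11, FDR = 0.00181), with germ-free mouse 1 the lowest of all mice. Mrps33, also specific to mitochondria, was at 15.3, 17.5, 15.7, 15.999 and 16.1 CPM in germ-free mice and at 18.5, 21.8 and 24.7 CPM in humanized mice (LFC 0.43, SE 0.08, FDR = 4.59e-04). Its groups did not overlap, nor did those of Mrps27, a pentatricopeptide repeat protein, at 14.5, 17.4, 15.8, 16.2 and 18.0 CPM in germ-free mice and 19.99, 21.6 and 25.8 CPM in humanized mice (LFC 0.42, SE 0.08, FDR = 6.04e-04).

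**Figure D3:**
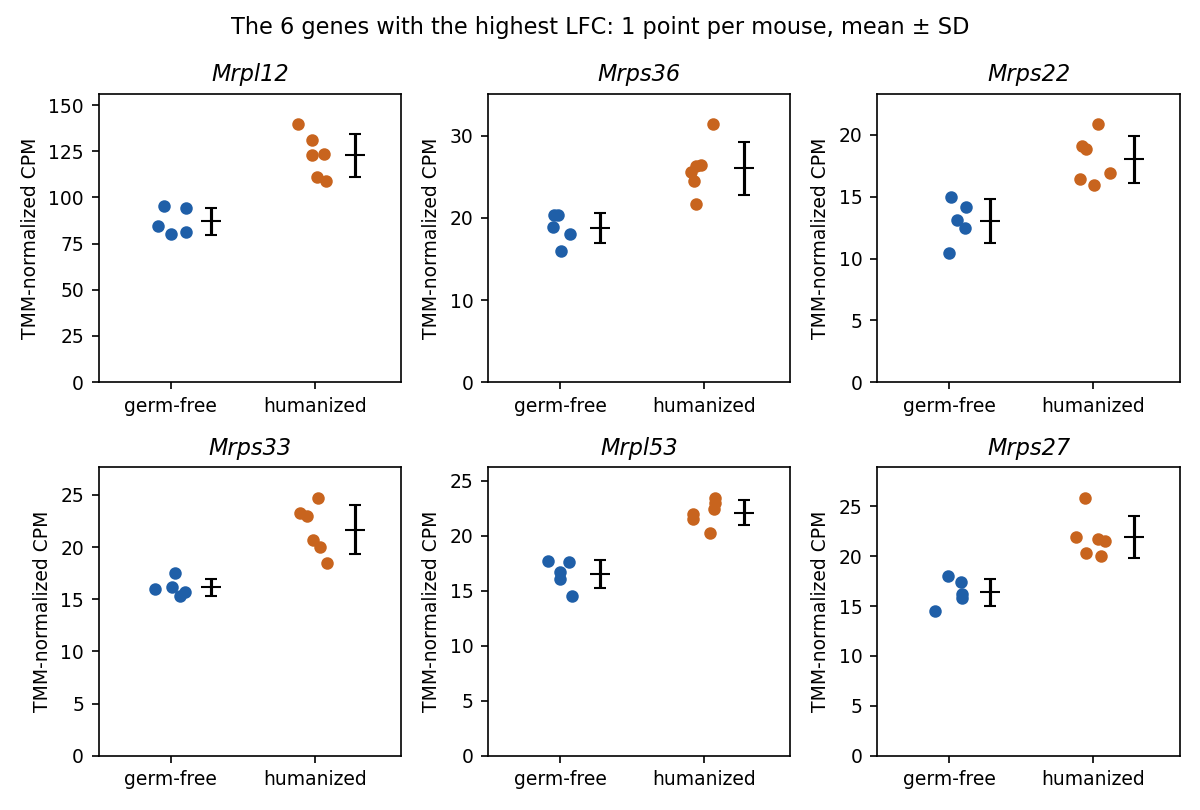
TMM-normalized CPM (vertical axis, from 0) of the 6 genes with the highest LFC, with 1 point per mouse and the mean ± SD beside each group of 5 germ-free and 6 humanized mice. In each panel every humanized mouse lies above every germ-free mouse, for example at 109 to 139 CPM against 80.0 to 95.6 CPM for Mrpl12.

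Among small-subunit proteins with bacterial counterparts, Mrps16, needed to assemble the subunit, lay at 20.7 to 23.4 CPM in germ-free and rose to 24.7 to 31.0 CPM in humanized mice (LFC 0.39, SE 0.07, FDR = 9.78e-05). Mrps5 and Mrps15 rose by an LFC of 0.30 and 0.25. Mrps12, a protein of the decoding centre, had an LFC of 0.23 and an FDR of 0.0299, and so did not pass although its groups did not overlap (18.5 to 20.4 against 21.001 to 25.4 CPM). The 3 genes named for S18 fall into different classes here, with Mrps18a counted as specific to mitochondria in the large subunit, Mrps18b as specific to mitochondria in the small subunit and Mrps18c as the small-subunit counterpart of the bacterial protein. Their LFCs were 0.15 for Mrps18a (FDR = 0.152), 0.10 for Mrps18b (FDR = 0.490) and 0.30 for Mrps18c (FDR = 0.0175), and none passed in the exact test. Besides Mrpl23, the genes with a negative LFC were Mrps34 (-0.06), Mrpl48 (-0.05) and Mrps26 (-0.01), with FDRs between 0.659 and 0.935.

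Levels per length spanned a wide range. Divided by the deposited gene length in kilobases (RPKM), the highest mean levels belonged to Mrpl52 (74.0 ± 4.43 RPKM in germ-free and 87.3 ± 7.97 in humanized mice), Mrpl12 (56.8 ± 4.79 and 80.1 ± 7.67) and Mrpl42 (56.9 ± 3.10 and 67.1 ± 3.63). In germ-free mice Mrpl12 and Mrpl42 did not differ beyond their spread. The lowest were Mrps10 (2.58 RPKM in germ-free and 2.73 in humanized mice), Mrpl13 (3.19 and 3.86) and Mrps22 (3.27 and 4.52). The low end depended on the length used. With the length of the principal transcript, which 76 of the genes have, Mrpl12, Mrpl52 and Mrpl42 were still ranks 1 to 3, whereas Mrpl13 moved to rank 33, Mrps10 to rank 39 and Mrps22 to rank 54. The change was not tied to the level: Spearman's rho between LFC and mean CPM was -0.07 across the 77 genes, which are not independent replicates.

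Some of these counts could include reads of other genes or lack reads that fall on shared bases. Which of these applies depends on counting settings that are not given in the sources used here. In GENCODE M21, 31 of the 77 genes share exon bases with another gene, 27 of them with a gene on the opposite strand, and the library kit does not mark strand. Mrpl33 was not found there under its identifier, so its overlap could not be checked. Of the 23 genes that rose, 10 are affected, Mrpl12, Mrpl53, Mrps27 and Mrpl9 among them, and their values are uncertain to that extent. Processed copies had fewer reads than their parents, for example 6 to 28 reads for Mrps36-ps1 and 37 to 79 for Mrps36-ps2 against 844 to 1491 for Mrps36. The ratio was less favourable for Mrpl23, with 90 to 225 reads on Mrpl23-ps1 against 296 to 784.

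Motif content was set beside the LFC. Genes with an ETS motif had a median LFC of 0.24 and those without 0.25, and the same 2 values held for YY1. Of 21 genes that rose and had a window, 7 held the ETS motif, 4 the YY1 motif and 2 the NRF1 motif. Of all 68 genes with a window, 25, 20 and 3 held these motifs. The 3 genes with the NRF1 motif had a median LFC of 0.33 and those without 0.25.

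The rest of the mitochondrial translation apparatus was read from named lists, with TMM. Over 6 lists, of which the genes of mitochondrial DNA had no reads, 13 of 92 tested genes rose and 0 fell with the exact test, and with epithelial scaling 1 rose (Lars2) and 2 fell (Mars2 and Trmt10c). Of all tested genes, 9.20% rose and 10.1% fell with TMM, and 2.71% and 17.5% with epithelial scaling. Leaving out 1 mouse, 4 of the 92 passed without germ-free mouse 1 or 3, 7 without germ-free mouse 4, 8 without germ-free mouse 2 or 5, 6 without humanized mouse 1 and 7 without humanized mouse 6. Of the 6 ribosomal subunits with other names, Ptcd3 rose (LFC 0.29, FDR = 0.00373), while Dap3, a small-subunit GTP-binding protein, had an LFC of 0.21 (FDR = 0.0176) and Ict1, the peptidyl-tRNA hydrolase of the large subunit, 0.31 (FDR = 0.0137). Of 28 genes for assembly and rRNA modification, none rose or fell in the exact test (median LFC 0.11), with 8 higher and 0 lower at an unadjusted p below 0.05, 0 by the quasi-likelihood test and 1 higher by DESeq2. Over all tested genes, 18.5% were higher and 19.0% lower at that unadjusted p. The quasi-likelihood test called 7.05% higher and 6.53% lower, and DESeq2 called 2185 higher and 2182 lower of 19831 genes. Of 14 translation factors, 5 rose (median LFC 0.20). Among them were Tufm, the elongation factor that delivers tRNA (LFC 0.39, FDR = 8.99e-04), the initiation factor Mtif2 (LFC 0.32, FDR = 2.57e-04) and Taco1, an activator of Cox1 translation (LFC 0.32, FDR = 0.00892).

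Of 20 genes for charging mitochondrial tRNA, 2 rose (median LFC 0.18), a share near the 9.20% of all tested genes. Mars2, the methionyl enzyme, had an LFC of -0.23 (FDR = 0.0241, exact test), did not overlap between groups and was called lower by DESeq2. The count for Lars2, the mitochondrial leucyl-tRNA synthetase, rose from 1878 ± 359 CPM (SD, n = 5) to 4515 ± 1344 CPM (SD, n = 6), an LFC of 1.27 (SE 0.20, FDR = 9.47e-09, exact test). Lars2 kept an LFC of 1.01 with epithelial scaling (FDR = 6.78e-06, exact test), and its groups did not overlap (1528 to 2433 against 3019 to 6831 CPM). Per length, Lars2 stood at 484 RPKM in germ-free and 1163 RPKM in humanized mice, whereas the mean levels of the other 19 genes of the list lay between 2.12 and 15.2 RPKM. All 37 rows of the mitochondrial chromosome were at 0, and whether the reads counted for Lars2 all come from this gene was not tested. Of 24 genes for mitochondrial DNA transcription and RNA handling, 5 rose (median LFC 0.17), among them the RNA-processing enzyme Pnpt1 (LFC 0.37) and Tfam, which packages mitochondrial DNA (LFC 0.23, FDR = 0.00643). Polrmt, the mitochondrial RNA polymerase, had an LFC of -0.01 (FDR = 0.949), and Lrpprc, which stabilizes mitochondrial mRNAs, 0.14 (FDR = 0.0869). The messages that the ribosome translates could not be read, because the genes of the mitochondrial chromosome were listed at 0 in all 11 mice.

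Of 9 regulators of mitochondrial biogenesis, 0 rose and 1 fell in the exact test, where 9.20% and 10.1% of all tested genes did. At an unadjusted p below 0.05, 2 were higher and 2 lower in the exact test, against 18.5% and 19.0% of all tested genes. The quasi-likelihood test called none, against 7.05% and 6.53% of all tested genes. DESeq2 called 2 higher and 1 lower, against 2185 and 2182 of 19831 genes. Myc, a transcription factor of growth genes, fell (LFC -0.41, FDR = 0.00308), and the values were 0.12 for Nrf1 (FDR = 0.419), 0.04 for Gabpa (FDR = 0.693) and -0.12 for the coactivator Ppargc1a (FDR = 0.601). Of 13 nuclear genes taken as a measure of mitochondrial mass, 8 rose (median LFC 0.29), including the outer-membrane channel Vdac3 (LFC 0.54), the chaperonin Hspd1 (LFC 0.53) and citrate synthase Cs (LFC 0.44, FDR = 2.77e-04). With epithelial scaling 0 of these 13 rose (median LFC 0.04). Scaled to these 13 genes, 0 mitochondrial ribosomal protein genes rose and 8 fell (median LFC -0.08), against 2.64% and 34.1% of all tested genes. The median of all tested genes was then -0.32, and 73 of the 77 lay above it, a count that a change of scaling could hardly alter. By name pattern, 55 of 79 oxidative phosphorylation subunits rose (median LFC 0.35) and 26 of 80 cytosolic ribosomal protein genes (median LFC 0.21), with 0 lower in either by the exact test, at an unadjusted p below 0.05, by the quasi-likelihood test or by DESeq2. Over all tested genes 9.20% rose. With epithelial scaling these counts were 4 and 1, against 2.71% of all tested genes, with medians of 0.09 and -0.05.

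**Figure D4:**
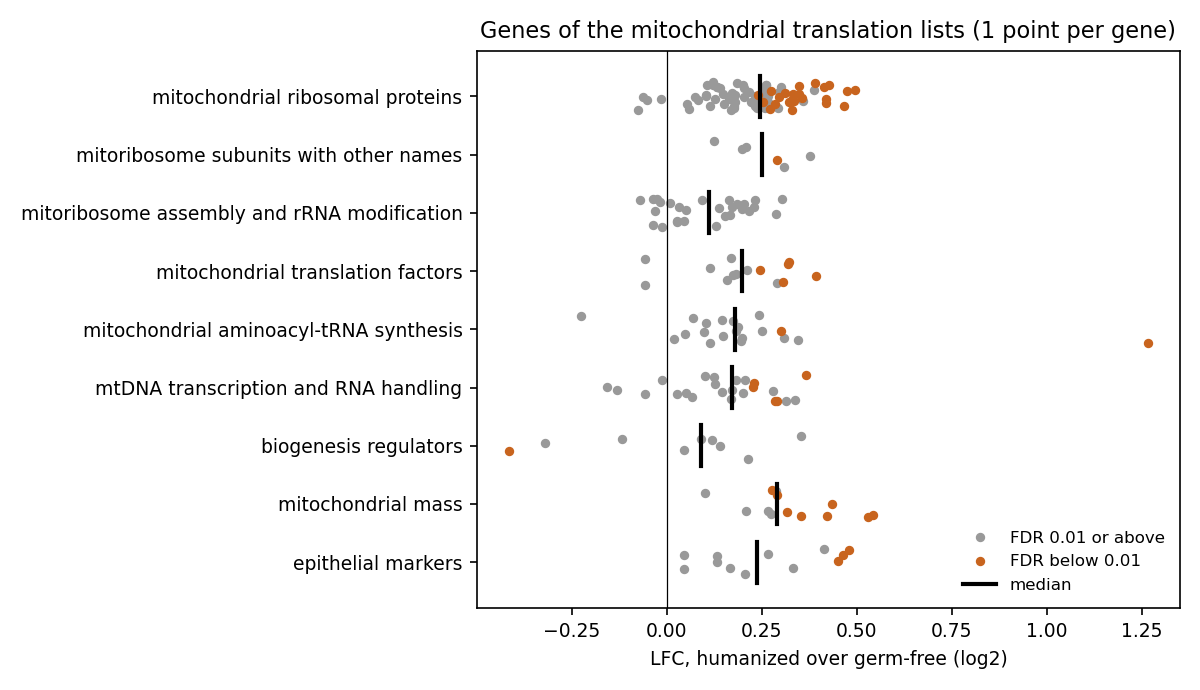
LFC of each gene with TMM (log2 of humanized over germ-free, horizontal axis) in the lists named in the text, with 1 point per gene, orange at FDR below 0.01, and the median as a black bar. The medians are 0.25 for the mitochondrial ribosomal proteins, 0.11 for assembly genes, 0.29 for mitochondrial mass and 0.24 for epithelial markers, Lars2 lies far to the right at 1.27, and with epithelial scaling the first of these medians is -0.01.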

How the data were processed

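Colon libraries of 5 germ-free and 6 humanized mice were grouped by their labels. The authors made the deposited raw gene counts (1 table, not normalized) with bcl2fastq 2.17.1.14, TopHat2 2.1.0, Bowtie2 2.2.3 and featureCounts of Subread 1.4.6-p5 on mm10, per the labels; the annotation release and strand setting are not given in the sources used here. From these counts, genes passing edgeR's filterByExpr (minimum count 10, minimum total 15) were TMM-scaled and compared with edgeR's exact test (edgeR 4.0.16, R 4.3.3), Benjamini-Hochberg adjusted over all 19863 genes, at FDR below 0.01. SEs came from the quasi-likelihood fit. Every p-value with an LFC is of the exact test unless another tool is named.

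RPKM used the deposited length column. Its making is not stated, and for 76.3% of tested genes it lies within 10% of the exon union in GENCODE M21. Named genes were those at FDR below 0.01 (at most 12 per end by LFC), the 3 highest and 3 lowest by RPKM, and genes fixed by role; in other lists, up to 3 genes at FDR below 0.01 per list and genes fixed by role. Mrpl18, Mrpl23, Mrpl48, Mrps26, Mrps34, Mars2, Trmt10c and the genes without overlap between groups that did not pass were named after their values were seen. The members and lists were chosen with earlier results of these data known. Alternatives were the quasi-likelihood test, DESeq2 1.42.0, other scalings, filters and thresholds, a replicate block and leaving out each mouse. Scaling to mitochondrial mass genes and leaving out humanized mice 5 and 6 together were added after seeing the data. The labels name separate mice, and replicate numbers do not pair germ-free with humanized mice. RefSeq promoter windows were not at hand for 9 genes.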

Additional observations from a re-analysis of the deposited data

Results flagged for a closer look

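In 2 of 102 groups tested (51 named genes in 2 groups of mice), 1 mouse lay far from the others of its group by Dixon's criterion, which by chance marks about 1 in 20. For Mrpl24, germ-free mouse 1 was lowest at 53.5 CPM, with the next mouse at 59.4 CPM. For Mrps27, humanized mouse 1 was highest at 25.8 CPM, with the next at 22.0 CPM.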

How the results depend on the processing

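With the fewest higher genes, 14 of the 77 rose without germ-free mouse 3 and 15 without germ-free mouse 1, and over the 11 fits that leave out a mouse the count was 14 to 28, the lower count 0 to 0 and the median LFC 0.21 to 0.26. In all 11 fits, 13 of the 23 genes rose, and 73 of 77 had an LFC above 0. The count of higher genes was 1 with total counts, 0 with epithelial scaling, 0 with mitochondrial mass scaling, 43 at FDR below 0.05 and 0 with an absolute LFC above 0.58 as well. Lower genes numbered 1 with epithelial scaling and 8 with mitochondrial mass scaling, and the median LFC was 0.058 with total counts, -0.011 with epithelial scaling and -0.080 with mitochondrial mass scaling. Without humanized mice 5 and 6, 18 genes rose. For the fits that leave out mice, shares over all tested genes are not given. In the 6 other lists 13 genes passed in either direction, all of them higher, and this count was 8 with the quasi-likelihood test, 22 with DESeq2 (21 higher, 1 lower), 6 with upper-quartile scaling, 4 with total counts, 3 with epithelial scaling (1 higher, 2 lower), 6 without a filter, 7 with at least 10 counts in every mouse, 22 at FDR below 0.05, 1 with the LFC threshold, 7 without humanized mice 5 and 6, and 4 to 16 leaving out a mouse (4 without germ-free mouse 1 or 3). The cause was not tested.

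The replicate number as a block left 1 of 23 higher genes and 0 of 13 in the other lists. The numbers are only names, since same-numbered mice deviated together with correlations of -0.13 to 0.09, and 1 germ-free mouse correlated best with its own number.

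Among the 51 genes chosen by the naming rule, the LFC changed sign with total counts for Gabpa (-0.14), Lrpprc (-0.043), Mrps10 (-0.10), Mrps18a (-0.0404), Mrps18b (-0.084) and Nrf1 (-0.068). With epithelial scaling it changed sign for Dap3 (-0.048), Gabpa (-0.21), Lrpprc (-0.11), Mrpl11 (-0.048), Mrpl42 (-0.012), Mrpl52 (-0.015), Mrps10 (-0.16), Mrps12 (-0.019), Mrps18a (-0.11), Mrps18b (-0.15), Nrf1 (-0.13) and Tfam (-0.026). Of the other mitochondrial ribosomal protein genes named in the text, Mrps30 (-0.0014), Mrpl32 (-0.0081), Mrpl33 (-0.016), Mrpl47 (-0.034) and Mrpl19 (-0.081) were also below 0 with epithelial scaling. Polrmt ranged from -0.0546 to 0.015 when a mouse was left out, and was above 0 without germ-free mouse 3 (0.015) or humanized mouse 2 (0.0083). Calls at other depths were not compared.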
